A study of Rattus norvegicus with 24 samples.

Results

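The miRNAs of the imprinted Dlk1-Dio3 domain were followed in the paraventricular nucleus of the hypothalamus (PVN) and the central amygdala (CEA) of rats. The members were taken by name, as every row whose miRNA name belongs to a hairpin of this locus, and the rule uses no measured value. This gave 91 mature miRNAs from 49 hairpins, of 1098 miRNAs counted in 24 small RNA libraries. Young male Sprague-Dawley rats formed 4 treatment groups. Normal controls (NC) had no operation. The HT rats underwent partial hepatectomy under isoflurane. The HT+EA rats had the same operation with electroacupuncture at ST 36 and SP 6 before and after it, and the HT+SEA rats had needles at these points with no current. Rats of all groups, NC included, were held in the restraint device. Each treatment had 3 libraries from each nucleus. The methods count 12 rats over the 4 groups, and also describe the brain samples as not from the same animal but from 1 batch, taken a day after the last stimulation. The 24 libraries may therefore come from fewer than 24 rats, and which PVN and CEA libraries share a rat, if any, is not stated. The surgical isoflurane is described for the operated groups, so HT against NC holds it together with the surgery.

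The Dlk1-Dio3 domain is an imprinted region, in which a gene is read from the copy of only one parent. The paternal copy expresses the protein-coding genes Dlk1, Rtl1 and Dio3, and the maternal copy expresses the long non-coding RNAs Meg3, Rian and Mirg, from whose long transcripts the miRNA hairpins are cut. Each hairpin can release a mature miRNA from its 5p arm and one from its 3p arm, and the bases from the second to the eighth, the seed, choose most of the mRNAs that it represses. The locus is known for its expression in the brain, where miR-134 limits dendritic spine growth through Limk1 and where neuronal activity raises the miR-379/miR-410 cluster through Mef2. miR-127 and miR-136 lie opposite Rtl1 and lower its mRNA.

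Mature sequences from RefSeq (build GRCr8) matched 88 of the 91 members, all on chromosome 6 over 281.735 kb, from miR-770-5p at chr6:134298094-134298115 to miR-410-3p at chr6:134579808-134579828, both on the plus strand. The 2 miR-770 arms lay within Meg3, and 7 matched members lay opposite or within the bounds of Rtl1. miR-127-5p, miR-136-5p and miR-679 had no entry. The sequences below are those the results turn on, 5′ to 3′ with the seed (bases 2 to 8) in capitals: the 3 most abundant members, 8 of the members called as higher or lower in PVN, both arms of 2 hairpins whose arm ratio differed, and the miR-493 arms of the treatment comparisons.
miR-127-3p: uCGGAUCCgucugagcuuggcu
miR-434-5p: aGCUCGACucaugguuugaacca
miR-379-5p: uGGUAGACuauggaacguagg
miR-666-5p: aGCGGGCAcggcugugagag
miR-770-3p: gUGGGCCUgacguggag
miR-134-5p: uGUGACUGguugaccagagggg
miR-758-3p: uUUGUGACcugguccacuaacc
miR-380-5p: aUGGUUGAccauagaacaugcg
miR-667-5p: cGGUGCUGguggagcagugagcac
miR-494-3p: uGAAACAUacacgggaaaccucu
miR-337-5p: cGGCGUCAugcaggaguugau
miR-376b-5p: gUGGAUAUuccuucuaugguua
miR-376b-3p: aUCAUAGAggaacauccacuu
miR-323-5p: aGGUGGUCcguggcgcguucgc
miR-323-3p: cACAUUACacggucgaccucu
miR-493-5p: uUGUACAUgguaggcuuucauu
miR-493-3p: uGAAGGUCuacugugugccag

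The locus held few shared seeds. Seeds were shared by 6 sets, of which the largest had 3 members (miR-410-5p, miR-494-5p and miR-496-5p, seed GGUUGUC). miR-381-3p and miR-539-3p shared the seed AUACAAG, and miR-300-3p, whose seed is AUGCAAG, resembles miR-381-3p over its whole length, as the lines show.
miR-381-3p: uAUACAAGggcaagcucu
miR-539-3p: cAUACAAGgguaauuucuuuuc
miR-300-3p: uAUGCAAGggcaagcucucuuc
miR-300-3p and miR-381-3p had 1 mismatch over 18 bases, and so did miR-376b-5p and miR-376c-5p over 21 bases. Reads of such pairs may have been split either way, and the values of miR-381-3p and miR-376c-5p, the much rarer partners, are uncertain for that reason.

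Library totals ran from 6584345 to 14828269 counts in PVN and from 9463321 to 14913564 in CEA, where 3 counts stand for 0.201 to 0.456 CPM (counts scaled to a library total of 1000000). Of the 91 members, 82 had a mean of at least 10 counts and 78 reached 10 counts in every library. miR-758-5p had at most 3 counts in each library. Identity of the tissue was checked on marker miRNAs. The hypothalamic and neuroendocrine marker miR-7a-5p had 124575 to 156781 CPM in PVN and 21968 to 49399 CPM in CEA. The 3 neuronal markers (miR-124-3p, miR-9a-5p, miR-128-3p) together had 102643 to 116260 CPM in PVN and 137326 to 161729 CPM in CEA, the 2 oligodendrocyte markers together 200 to 559 and 445 to 1059 CPM, and the endothelial marker 17248 to 21603 and 22919 to 26282 CPM. The epithelial and pituitary markers, 4 listed and 3 detected, summed to 84.7 to 168 CPM in PVN and 4.51 to 42.6 CPM in CEA. Of these markers 1 was at 0 in some library. In bulk tissue, fewer cells of a type and less RNA per cell cannot be told apart, and the part of these markers in the differences between the nuclei was not tested.

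Some members were not separate measurements. The count of miR-434-3p was the same in all 24 libraries as that of miR-3543, whose RefSeq position is on the other strand over 22 shared bases, and miR-539-5p matched miR-3576 in the same way. In 6 of 10 such opposite-strand pairs the counts differed by less than 2% in every library. In one of these both partners were members, miR-409a-3p and miR-409b, with 232673 and 233601 counts in all. They are counted below as 2 members but hold the same reads.

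Together the 91 members took 10.2 to 11.4% of all miRNA counts in PVN and less in CEA. Their share was 11.02, 10.50 and 10.998% in the PVN libraries of NC rats, 10.2, 10.8 and 10.5% in HT, 10.7, 10.9 and 11.4% in HT+EA, and 10.90, 10.75 and 10.99% in HT+SEA. In CEA the share was 8.46, 6.99 and 7.11% in NC, 6.38, 7.82 and 7.59% in HT, 8.26, 8.94 and 8.32% in HT+EA, and 8.26, 7.54 and 7.06% in HT+SEA. The lowest PVN library lay above the highest CEA library, and the means were 10.8% ± 0.312 (SD, n = 12) and 7.73% ± 0.750 (SD, n = 12). The 4 treatments overlapped within PVN, whereas in CEA the HT+EA libraries (8.263% and up) lay above all HT libraries and narrowly above all HT+SEA libraries (up to 8.256%). These are shares of library totals. On that scale the median log2 difference of HT+EA from HT in CEA was 0.16 over 532 miRNAs and also 0.16 over 82 members. With TMM scaling it was 0.02 and -0.00148, so the shift from HT was of like size in the locus and over all miRNAs. From HT+SEA it was 0.02 over all and 0.10 over the members with library totals, and -0.01 and 0.07 with TMM. Without miR-127-3p the lowest HT+EA library in CEA (4.67%) lay below the highest of HT (4.71%) and of HT+SEA (5.14%).

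**Figure D1:**
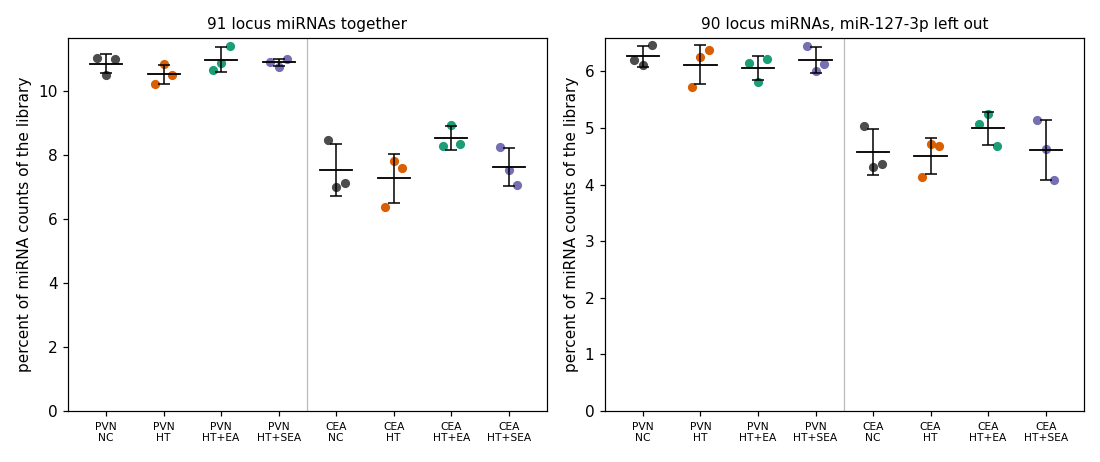
Percent of each library's miRNA counts from the locus (y axis) by nucleus and treatment (x axis), for all 91 members on the left and without miR-127-3p on the right. Points are libraries, lines and bars the mean ± SD of 3. All PVN libraries sit at 10.2% or more and all CEA libraries at 8.94% or less, and without miR-127-3p the ranges are 5.73 to 6.47% and 4.08 to 5.24%.

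A handful of members carried most of this share. miR-127-3p alone made up 41.5% of the locus counts and was the 6th most abundant miRNA of the 1098, and the 3 leading members (miR-127-3p, miR-434-5p and miR-379-5p) made up 58.7%. Each small RNA read covers a whole mature miRNA, so counts were compared between members without scaling for length. The mean level was over 1000 CPM for 16 members and under 10 CPM for 24. By place in the locus, the miR-127/miR-136 group opposite Rtl1 held 6.48% ± 0.272 of PVN counts and 4.58% ± 0.515 of CEA counts (SD, n = 12 each). The miR-379/miR-410 cluster, with 68 members, held 3.60% ± 0.188 and 2.58% ± 0.247. The 14 members outside both held 0.718% ± 0.0492 and 0.569% ± 0.0733.

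The first comparison asked how the 2 nuclei differ, with treatment as a covariate, by edgeR's quasi-likelihood test on the counts. A member was called where its p, adjusted over all miRNAs, was under 0.05. In PVN, 40 members were higher and 12 were lower than in CEA, and 39 did not pass. Over all 1098 miRNAs, 39.9% were called, 20.1% as higher and 19.8% as lower, against 57.1% of the members, 44.0% higher and 13.2% lower. This table keeps every miRNA with a count, and the background depends on that. With edgeR's filterByExpr, which drops rare miRNAs, 71.2% of 566 miRNAs were called, 36.6% as higher and 34.6% as lower, against 67.1% of 85 members, 51.8% higher and 15.3% lower. The share of members called was therefore above that of all miRNAs with the first filter and below it with the second, while the share called as higher was the larger among members with both. The median log2 difference was 0.22 over the members and 0.03 over all miRNAs. In 50 of the 52 called members the mean difference had 1 sign in all 4 treatments (the exceptions were miR-493-3p and miR-544-3p, named after their values were seen), as it had in 404 of the 438 called over the whole table. For 21 members the 12 PVN libraries did not overlap the 12 CEA libraries, 20 of them higher and 1 lower in PVN. Over all 1098 miRNAs this held for 11.6%. This background too holds rare miRNAs, since 532 of the 1098 had a mean of at least 10 counts, against 82 of the 91 members. The share among miRNAs of like level was not tested.

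Among the abundant members the differences were modest. miR-127-3p had 41114, 45445 and 51847 CPM in PVN (lowest, median and highest of 12 libraries) and 22336, 30421 and 36975 CPM in CEA. No CEA library reached the lowest PVN library, and the log2 difference was 0.57 ± 0.05 (SE, adjusted p = 3.86e-11). Its partner miR-127-5p moved the other way, with a median of 1510 CPM in PVN and 1756 CPM in CEA and a log2 difference of -0.26 ± 0.06 (SE, adjusted p = 0.000332). miR-434-5p, which like miR-127 is cut from the strand opposite Rtl1, had 8320, 9785 and 10828 CPM in PVN and 5326, 7590 and 8125 CPM in CEA, again with no overlap (log2 difference 0.35). miR-379-5p, the first miRNA of the large cluster, had 8163, 9085 and 12907 CPM in PVN and 4546, 5417 and 6525 CPM in CEA. Its libraries did not overlap either, and the log2 difference was 0.73 ± 0.08 (SE, adjusted p = 8.11e-10). Of the other 8 of the 12 most abundant members, miR-341 (log2 difference 0.29), miR-300-3p (0.47), miR-411-5p (0.28) and miR-382-3p (0.46) were higher in PVN. miR-434-3p (0.10), miR-495 (0.25), miR-136-3p (0.11) and miR-543-3p (0.07) did not pass.

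The members furthest above in PVN had intermediate or low levels. miR-666-5p, of the large cluster, had 81.8, 99.0 and 125.8 CPM in PVN and 15.5, 26.9 and 39.4 CPM in CEA. This was the largest difference among the called members, 1.80 ± 0.13 on the log2 scale (SE, adjusted p = 3.20e-14). miR-770-3p, from the hairpin within Meg3, had 418, 502 and 656 CPM in PVN and 98.8, 144 and 192 CPM in CEA, a log2 difference of 1.78 ± 0.11 (SE, adjusted p = 4.17e-16). For both, the lowest PVN library held more than 2 times the level of the highest CEA library. The other arm, miR-770-5p, had medians of 10.3 and 3.64 CPM, also without overlap (log2 difference 1.45). miR-134-5p, the regulator of dendritic spines, had 1162, 1488 and 2329 CPM in PVN and 368, 550 and 651 CPM in CEA. Its difference was 1.48 ± 0.09 on the log2 scale (SE, adjusted p = 1.76e-15). The next were miR-666-3p (log2 difference 1.37), miR-758-3p (1.32), miR-487b-5p (1.24) and miR-380-5p (1.18). Of these, miR-758-3p had a median of 345 CPM in CEA and 886 CPM in PVN and miR-380-5p 332 and 773 CPM, whereas miR-487b-5p had a median of only 1.84 CPM in PVN, and the libraries of miR-666-3p and miR-487b-5p overlapped. miR-667-5p had 41.1, 45.9 and 59.9 CPM in PVN and 18.9, 22.3 and 29.8 CPM in CEA, with no overlap and a log2 difference of 0.98 ± 0.09 (SE, adjusted p = 1.98e-11).

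**Figure D2:**
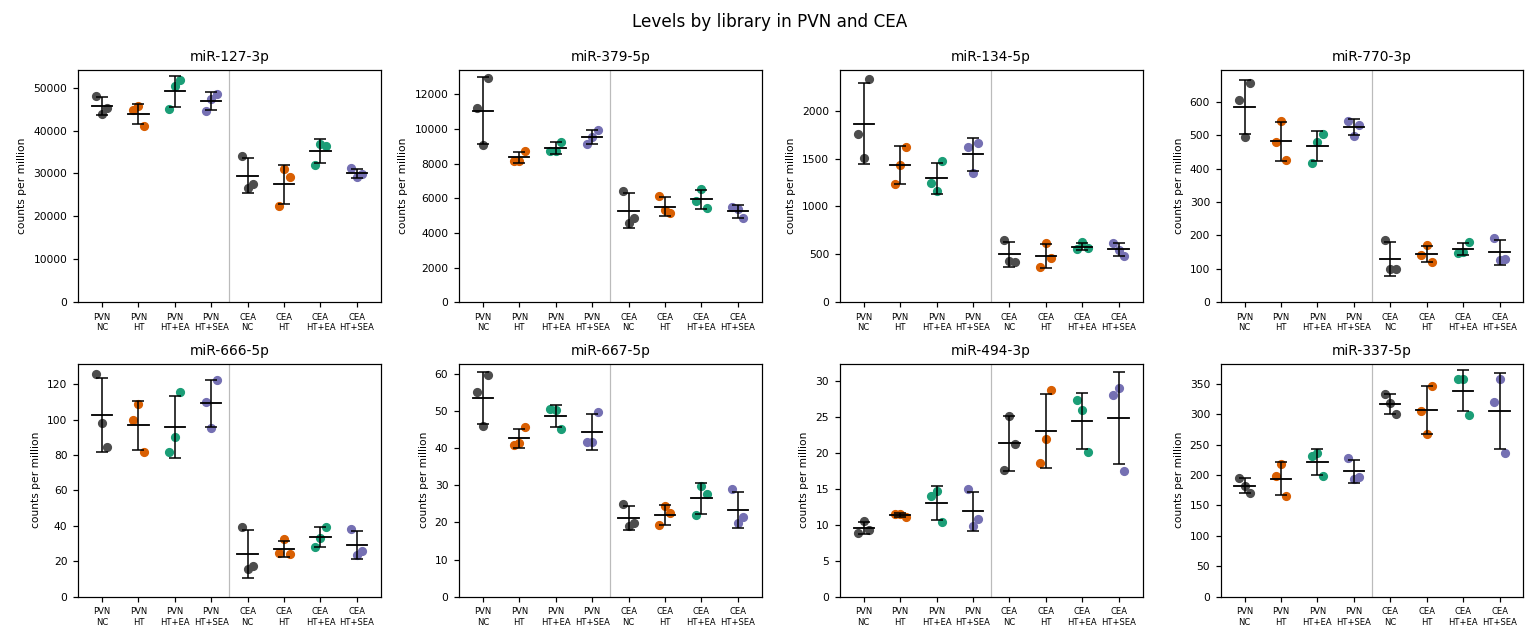
CPM (y axis, from 0) of 8 members in each library by nucleus and treatment (x axis). Points are libraries, lines and bars the mean ± SD of 3. miR-127-3p, miR-379-5p, miR-134-5p, miR-770-3p, miR-666-5p and miR-667-5p are higher in every PVN library than in any CEA library, miR-494-3p is lower in every one, and miR-337-5p overlaps at 236 to 237 CPM.

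A smaller set was lower in PVN. miR-494-3p, within the large cluster, had 8.81, 10.9 and 14.93 CPM in PVN and 17.4, 23.5 and 29.0 CPM in CEA, the one member with every PVN library below every CEA library. Its log2 difference was -1.08 ± 0.10 (SE, adjusted p = 8.28e-11). miR-337-5p had 166, 198 and 237 CPM in PVN and 236, 319 and 359 CPM in CEA, ranges that touched, with a log2 difference of -0.70 ± 0.08 (SE, adjusted p = 6.83e-10). miR-323-3p, the 3p arm of a hairpin whose 5p arm was higher in PVN, had 736, 901 and 1046 CPM in PVN and 1035, 1243 and 1466 CPM in CEA (log2 difference -0.51). The others of the 8 furthest below were miR-377-3p (-0.88), miR-673-5p (-0.58), miR-376c-3p (-0.56), miR-493-5p (-0.44) and miR-376b-3p (-0.43), of which miR-377-3p and miR-673-5p had medians under 10 CPM in both nuclei. Members known for roles at synapses were found on both sides of the threshold. miR-485-5p, which limits synapse formation through Sv2a, was higher in PVN by 0.53 ± 0.07 (log2, SE, adjusted p = 2.43e-08), while miR-329-3p (-0.10), miR-381-3p (0.08), miR-410-3p (-0.02) and miR-495 (0.25) did not pass.

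**Figure D3:**
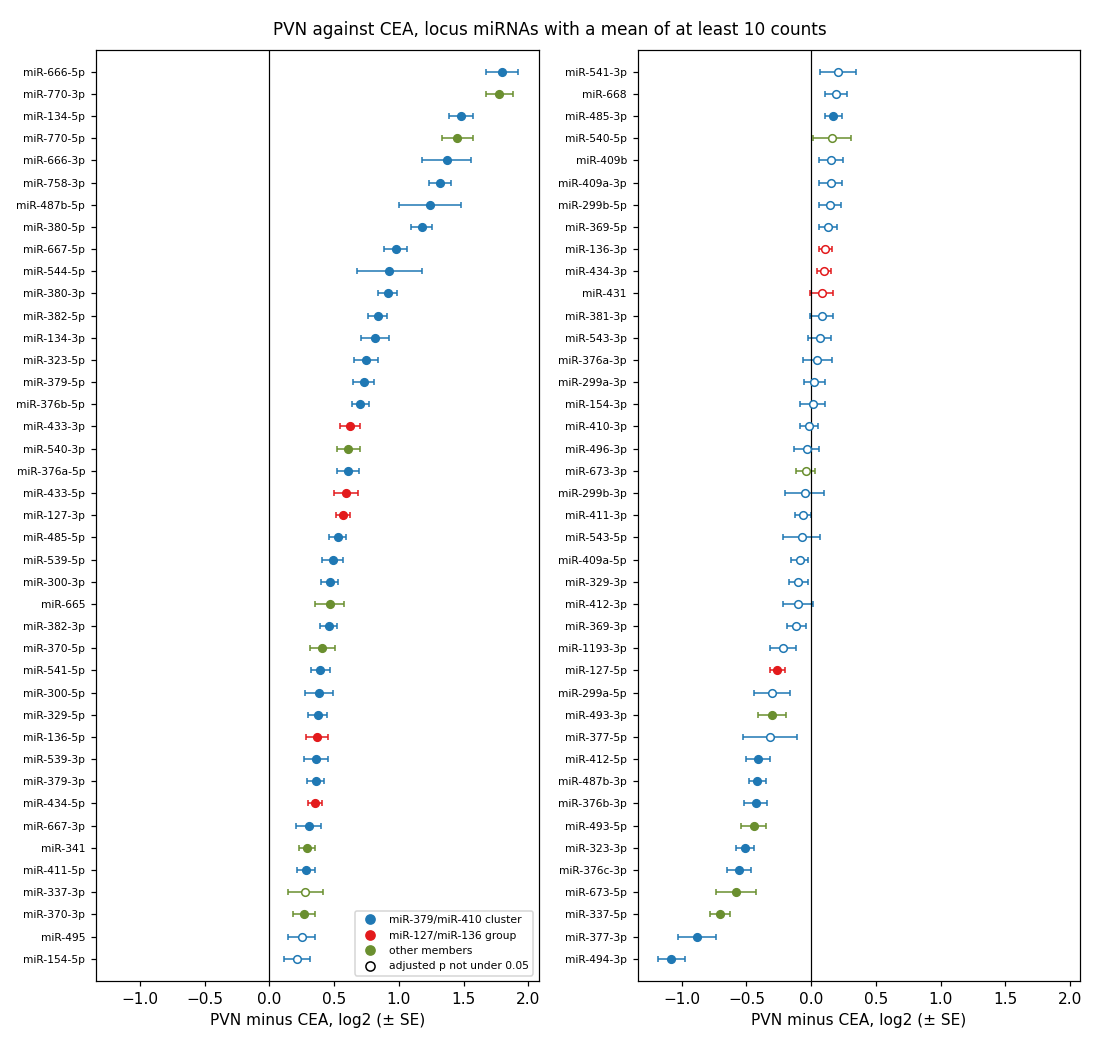
Difference between PVN and CEA in log2 units (x axis, ± SE) for the 82 members with a mean of at least 10 counts (y axis, ordered by the difference). Filled points passed an adjusted p under 0.05 and colours give the place in the locus. Values run from 1.80 for miR-666-5p to -1.08 for miR-494-3p, and members of each colour stand on both sides of 0.

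Each part of the locus held members called in both directions, and whether place in the locus orders the differences was not tested. Of the large cluster 28 members were higher, 7 were lower and 33 did not pass (median log2 difference 0.21). The miR-127/miR-136 group had 5, 1 and 3 (median 0.35), and the members outside both had 7, 4 and 3 (median 0.27). Across 80 members with a sequence and a mean of at least 10 counts, Spearman's rho of the difference with position along the chromosome was -0.10 and with mean level 0.11. With the GC content of the mature sequence rho was 0.28, against 0.12 across 478 matched miRNAs of the whole table. These points share the same 24 libraries. Other imprinted miRNAs were read beside the locus. Of 13 miRNAs of other imprinted regions (the miR-296/miR-298, miR-335, miR-344 and miR-483 groups), 10 were higher in PVN and 0 lower. Over all 1098 miRNAs 20.1% were called as higher and 19.8% as lower. Several of the 13 belong to the same group, so they are not 13 separate loci. miR-298-5p had 203.9 ± 25.3 CPM in PVN and 40.4 ± 13.1 CPM in CEA (SD, n = 12 each), a log2 difference of 2.32. Of 10 further miRNAs inside the bounds of the locus that are no members, 5 were higher and 0 lower. Of these 5, miR-3576, miR-3579 and miR-3592 held the reads of a member on the other strand.

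The 2 arms of a hairpin come from 1 precursor. Their ratio was tested as log2(5p/3p) with limma over 156 hairpins, 34 of them of the locus. The ratio differed between the nuclei in 21 of the 34, with the 5p share higher in PVN in 15 and the 3p share in 6, while 37.8% of all 156 hairpins were called. In 13 locus hairpins both arms differed between the nuclei in the same direction (38.2%, with 48.7% of all 156), in 4 they differed in opposite directions (11.8%, with 3.21% of all), and in 11 only one arm was called (32.4%, with 32.7% of all). For 2 locus hairpins the ratios of the 12 PVN libraries did not overlap those of CEA, against 5.77% of all. The first was miR-376b, where the 5p arm was 8.85 to 12.7 times the 3p arm in PVN (median 10.98) and 4.05 to 6.23 times in CEA (median 5.06). Its difference in log2 ratio was 1.12 ± 0.08 (SE) and it arose from both arms, since miR-376b-5p was higher and miR-376b-3p lower in PVN. The second was miR-323, with a 5p to 3p ratio of 0.0140 to 0.0223 in PVN and 0.00579 to 0.00860 in CEA and a log2 difference of 1.26 ± 0.08 (SE). The others among the 5 furthest to 5p were miR-487b (1.62), where the 5p arm is rare, miR-667 (0.68) and miR-134 (0.68). To 3p the furthest were miR-337 (-0.99), miR-127 (-0.82), miR-673 (-0.53), miR-540 (-0.39) and miR-770 (-0.34). The sign was the same in all 4 treatments for each of these 10 except miR-770, whose difference was 0.01 in HT+EA.

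**Figure D4:**
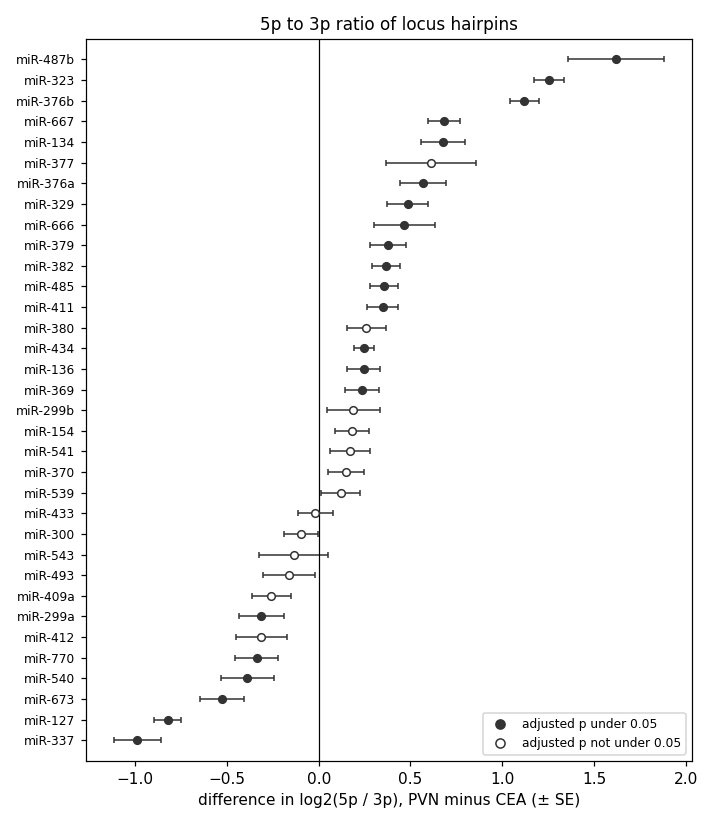
Difference between PVN and CEA in log2(5p/3p) (x axis, ± SE) for 34 hairpins of the locus (y axis). Filled points passed an adjusted p under 0.05. Values run from 1.62 for miR-487b to -0.99 for miR-337, with 15 filled points to the right of 0 and 6 to the left.

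The next comparisons asked what the operation and the stimulation changed within a nucleus. They used 3 libraries against 3 and the study's threshold, an unadjusted p under 0.05 (edgeR), with the adjusted p beside it. Total counts differed between these groups in PVN, at 6584345 to 10668808 in NC, 8789556 to 11050725 in HT, 12134529 to 14828269 in HT+EA and 13059380 to 13897929 in HT+SEA, and their part in the results was not tested. HT libraries enter 3 of the 4 comparisons of a nucleus and HT+EA and HT+SEA libraries 2 each, so the comparisons are not independent. edgeR's prior degrees of freedom were infinite in PVN HT+EA against HT+SEA and CEA HT against NC and 478 in PVN HT against NC. All miRNAs of a given level then have close to 1 spread, and the p of a miRNA whose libraries lie far apart may be too small there.

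In PVN, HT against NC called 9 of 90 members (10%), 3 higher and 6 lower, while 10.9% of 986 miRNAs were called. miR-379-5p fell, with 8169, 8163 and 8734 CPM in HT and 11191, 9070 and 12907 CPM in NC. The groups did not overlap, and the log2 difference was -0.44 ± 0.12 (SE, adjusted p = 0.0114). miR-495 rose by 0.51 ± 0.13 on the log2 scale (SE, adjusted p = 0.00822), yet its 3 HT libraries had 2411, 2541 and 4899 CPM against 2154, 2300 and 2195 CPM in NC. The third library carried most of this, and without it the difference was 0.13 and did not pass. miR-329-3p (0.49, adjusted p = 0.0660) likewise had a difference of 0.26 without that library and no longer passed. miR-134-5p (-0.42, adjusted p = 0.0649) and miR-380-5p (-0.42, adjusted p = 0.0925) were lower in HT. Without the third NC library miR-134-5p had a difference of -0.23 and did not pass, and the count of called members was 4 (4.44%, with 8.35% of all miRNAs). Of the 10 marker lists, 5 did not overlap between these groups. The myeloid marker miR-223-3p had 22.3 to 89.0 CPM in NC and 1.02 to 1.54 CPM in HT, and the 3 muscle markers together had 44.0 to 109 and 20.5 to 30.6 CPM, with none at 0. The 2 red cell markers together had 251 to 311 CPM in NC and 208 to 220 CPM in HT. The epithelial and pituitary markers (4 listed, 3 detected, 1 at 0 in at least 1 library) had 111 to 168 and 84.7 to 107 CPM. The choroid plexus marker miR-204-5p had 544.2 to 621 and 646 to 724 CPM. The part of these markers in the result was not tested.

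HT+EA against HT in PVN called 12 of 91 members (13.2%), 5 higher and 7 lower, and 11.4% of 985 miRNAs. With the replicate numbers as a block, 19 members were called (20.9%, with 12.9% of all miRNAs). The numbers are not stated to pair libraries across treatments, so this block is a hint from the data, not the design. Without the first or the second HT library 21 were called (23.1%), with 14.1% and 12.9% of all miRNAs. miR-136-5p, opposite Rtl1, had 1039, 826 and 1182 CPM in HT+EA and 1306, 1614 and 1993 CPM in HT. All HT+EA libraries were below all HT libraries, and the log2 difference was -0.64 ± 0.13 (SE, adjusted p = 0.00557). miR-493-5p had 58.3, 88.3 and 58.1 CPM in HT+EA and 138, 113 and 93.7 CPM in HT, again with no overlap and a log2 difference of -0.73 ± 0.17 (SE, adjusted p = 0.0298). Its other arm miR-493-3p fell as well at the unadjusted threshold (-0.52, adjusted p = 0.145), as did miR-376a-3p (-0.66, adjusted p = 0.0916). miR-379-3p (0.41, adjusted p = 0.124) and miR-411-3p (0.38, adjusted p = 0.145) were higher in HT+EA. miR-379-5p, lower in HT than in NC, had 8704 to 9269 CPM in HT+EA (log2 difference from HT 0.12, adjusted p = 0.659), and miR-667-5p differed from HT by 0.22 (adjusted p = 0.624). Markers differed here too. miR-223-3p had 8.98 to 11.9 CPM in HT+EA and 1.02 to 1.54 CPM in HT, the 2 oligodendrocyte markers together 269 to 318 and 343.8 to 559 CPM, and the epithelial and pituitary markers 109 to 151 and 84.7 to 107 CPM, and their part in the result was not tested.

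HT+SEA against HT in PVN, needles without current, called 7 of 91 members (7.69%), 2 higher and 5 lower, against 8.3% of 1000 miRNAs, and no member had an adjusted p under 0.05. The 5 with the smallest p were miR-495 (-0.49), miR-376a-3p (-0.53), miR-539-5p (-0.31), miR-136-5p (-0.26) and miR-370-5p (0.39), with adjusted p from 0.240 to 0.585. For miR-495 and miR-539-5p the third HT library stood above the other HT libraries, at 4899 and 165 CPM. Without it the differences were -0.14 for miR-495, -0.16 for miR-539-5p and -0.14 for miR-136-5p, and none of these passed. They lost their calls in 3, 4 and 4 of the 6 leave-outs. Without it miR-370-5p, at 0.27, did not pass either, nor did it without any other library, while miR-376a-3p kept its call in all 6 leave-outs. Without the third HT+SEA library 1 member was called (with 2.56% of all miRNAs), without the first or the second 4 (3.69% and 6.26% of all), and without the first HT library 11 (9.52% of all). Between HT+SEA and HT the choroid plexus marker had 569 to 623 and 646 to 724 CPM, the epithelial and pituitary markers 111 to 134.1 and 84.7 to 107 CPM, and the red cell markers 229 to 275 and 208 to 220 CPM, and their part was not tested. HT+EA against HT+SEA, which differ in the current alone, called 6 of 91 members (6.59%), 2 higher and 4 lower, against 7.14% of 994 miRNAs. Without the third HT+EA library the count was 13 (14.3%, with 8.78% of all miRNAs), and with the replicate block 11 (12.1%, with 7.85%). miR-493-5p was lower with current (log2 difference -0.58 ± 0.11, SE, adjusted p = 3.81e-05), at 58.3, 88.3 and 58.1 CPM against 115, 113 and 74.1 CPM, ranges that overlapped. DESeq2 gave it an unadjusted p of 0.0519, and edgeR with a robust spread 0.0749. miR-136-5p (-0.41, adjusted p = 0.000384) and miR-493-3p (-0.48, adjusted p = 0.00411) were lower too. miR-134-5p (-0.26, adjusted p = 0.112) and the rare miR-487b-5p (0.67, adjusted p = 0.427) completed the 5, and each lost its call without some library (smallest differences -0.19 and 0.54). Between HT+EA and HT+SEA the choroid plexus marker had 643 to 701 and 569 to 623 CPM, the muscle markers together 24.5 to 28.8 and 19.7 to 23.0 CPM, and the liver marker miR-122-5p 1.35 to 2.45 and 0.744 to 1.23 CPM, and their part was not tested.

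In CEA the counts were lower. HT against NC called 2 of 90 members (2.22%), both higher, against 3.82% of 996 miRNAs: miR-493-3p (log2 difference 0.43) and miR-667-3p (0.45), each with adjusted p = 0.988. Without the first HT library they were 0.10 and 0.25 and did not pass, as in 4 and 3 of the 6 leave-outs. With library totals or filterByExpr 0 members were called (2.91 and 1.33% of all miRNAs), and with DESeq2 1 (0.703%). HT+EA against HT called 5 of 90 (5.56%), 1 higher and 4 lower, against 5.28% of 1004. miR-493-3p had 56.9, 86.4 and 56.2 CPM in HT+EA and 129, 85.4 and 93.4 CPM in HT, and the groups overlapped (log2 difference -0.80 ± 0.22, SE, adjusted p = 0.178). miR-493-5p (-0.60), miR-136-5p (-0.52) and miR-431 (-0.40) were lower and miR-379-3p (0.37) was higher, with adjusted p from 0.316 to 0.897. Without the first HT library the miR-493-3p difference was -0.48 and that of miR-431 was -0.17, and the latter did not pass, as in 4 of the 6 leave-outs. Without the third HT+EA library miR-136-5p had -0.36 and did not pass, and miR-379-3p lost its call in 5 of the 6 leave-outs. HT+SEA against HT called 2 of 91 (2.20%), both lower, against 4.7% of 999: miR-136-5p (-0.44, adjusted p = 0.676) and miR-493-3p (-0.53, adjusted p = 0.682). The second was -0.21 without the first HT library and did not pass, as in 3 of the 6 leave-outs, and the first did not pass without the second HT library (-0.42). With library totals 0 members were called (4.6% of all miRNAs). HT+EA against HT+SEA called 1 of 91 (1.10%), miR-493-5p (-0.49, adjusted p = 0.997), against 2.24% of 1026, and it did not pass without the third HT+EA library (-0.35). In CEA miR-223-3p had 0.886 to 0.912 CPM in HT and 1.27 to 10.8 CPM in NC, 1.24 to 12.5 CPM in HT+EA and 1.38 to 18.99 CPM in HT+SEA. miR-122-5p had 1.01 to 1.07 CPM in HT and 0.619 to 0.672 CPM in HT+EA, and miR-204-5p 386 to 449 CPM in HT and 450 to 884 CPM in HT+SEA. The part of these markers was not tested. These counts rested on single libraries, and each is given with the share of all miRNAs called in the same fit. HT against NC gave 7, 0 and 1 members without NC library 1, 2 or 3 (6.74, 1.85 and 2.46% of all) and 1 and 8 without HT library 1 or 2 (2.75 and 5.2% of all). HT+EA against HT gave 3 without HT+EA library 1 or 3 (4.15 and 4.47% of all). HT+SEA against HT gave 1, 4 and 6 without HT library 1, 2 or 3 (3.97, 5.89 and 4.58% of all) and 1 without HT+SEA library 1 or 3 (1.75 and 3.34% of all). HT+EA against HT+SEA gave 2 without HT+EA library 2 (1.49% of all) and 3 and 4 without HT+SEA library 1 or 3 (2.69 and 3.67% of all).

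**Figure D5:**
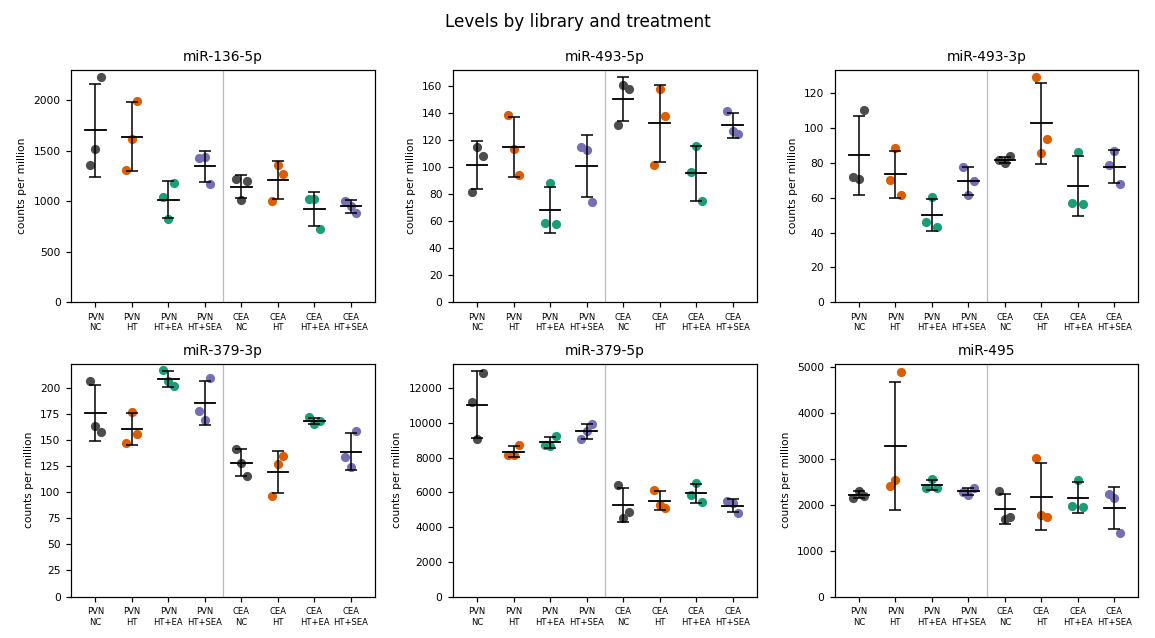
CPM (y axis, from 0) of 6 members in each library by nucleus and treatment (x axis). Points are libraries, lines and bars the mean ± SD of 3. In PVN the HT+EA libraries of miR-136-5p, miR-493-5p and miR-493-3p lie below the HT libraries, those of miR-379-3p lie above, and 1 HT library of miR-495 stands at 4899 CPM.

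At the unadjusted threshold miR-136-5p, miR-493-5p and miR-493-3p were called as lower in HT+EA than in HT in both nuclei. In CEA their adjusted p ran from 0.178 to 0.316, and the groups overlapped for each. HT+SEA was also called as lower than HT for miR-136-5p in both nuclei and for miR-493-3p in CEA. The difference between the nuclei in the response to HT+EA against HT was 0.24 or less in size for each of these members (log2 values -0.18, -0.18 and 0.24, with SE of 0.22 to 0.31). With library totals the values were -0.30, -0.28 and 0.08. No member differed between nuclei in the response to HT+EA against HT at an adjusted p under 0.05, as none of 1051 miRNAs did (0.0%). At an unadjusted p under 0.05, 0 members and 1.9% of all were called by edgeR, and 1 member (1.1%) and 0.571% of all by DESeq2. For HT against NC, 0 members passed the adjusted threshold, as did 0.188% of 1064 miRNAs. At the unadjusted threshold edgeR called 7 members (7.78%) and 4.98% of all, and DESeq2 called 2 members (2.22%) and 1.22% of all. The 7 were miR-379-5p (-0.67 ± 0.23, SE), miR-493-3p (-0.73), miR-770-3p (-0.62), miR-380-5p (-0.55), miR-134-5p (-0.49), and miR-409a-3p and miR-409b (both -0.51), the last a pair with the same reads. Their values were negative under each scaling but depended on it. With library totals miR-379-5p had -0.47, miR-493-3p -0.53, miR-134-5p -0.33, and miR-409a-3p and miR-409b both -0.29. On that scale miR-379-5p alone of the 7 passed, and miR-376a-3p (0.81) and miR-544-3p (2.01) passed with positive values, all with an adjusted p of 0.99977. The median over 532 miRNAs was -0.05 with TMM and 0.13 with library totals. Their adjusted p ran from 0.684 to 0.983.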

How the data were processed

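Small RNA libraries of PVN and CEA (3 per nucleus and treatment) were made with the NEBNext small RNA kit. The authors deposited read counts per mature miRNA. They cleaned the reads of adapters and low-quality bases, and the labels name HISAT2, featureCounts and the human build hg38, whereas the methods name mRatBN7.2. Which of these applies to the miRNA counts is not given in the sources used here. A further 24 columns of normalized values were not used, since they map to the same libraries.

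Counts were tested with edgeR 4.0.16 (quasi-likelihood, TMM, miRNAs with at least 1 count), arm ratios with limma 3.58.1 on log2((5p + 0.5)/(3p + 0.5)) for hairpins whose arms had a mean of at least 10 counts. p-values were Benjamini-Hochberg adjusted over all features. DESeq2 1.42.0 and other settings were alternatives. The fits were tested on simulated data. p-values cover only the spread between these libraries, and counting floors counting error only. Same-numbered libraries deviated together, in every pair, for PVN HT+EA and HT (correlations 0.144 to 0.309) and CEA HT and NC (0.209 to 0.427). Between the nuclei the correlations were positive in every pair in NC (0.183 to 0.301), HT+SEA (0.371 to 0.554) and, more weakly in 1 pair, HT+EA (0.0624 to 0.342). In HT they were not (-0.189 to 0.0215), so the fit over all 4 treatments was not taken as paired. The member rule uses names alone, but the locus and the lists were chosen with earlier results of these data known. Named were the 12 most abundant members, the 8 furthest called above and below between nuclei (mean of at least 10 counts) and 5 by p in each treatment comparison. Also named were 5 hairpins in each direction, members known at synapses and miR-667-5p, which the study's text names.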

Additional observations from a re-analysis of the deposited data

How the results depend on the processing

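Between the nuclei, the count of 52 called members was 51 to 58 under DESeq2, other scalings, another filter, a robust spread, identical counts entered once, the replicate block and the loss of any library, and 48 at an adjusted p under 0.01 (52.7%, with 32.7% of all miRNAs). With filterByExpr it was 57 of 85 (67.1%), below the 71.2% of all miRNAs called there, and in the other fits named the members' share was above that of all. Of the 52, 51 stayed called in each of the 7 alternative fits and 46 after the loss of any 1 library, and none changed sign. Within 1 treatment, settings added after seeing the data, 35 members were called in NC (38.9%, with 25.3% of all miRNAs), 22 in HT (24.4% and 20.7%), 36 in HT+EA (39.6% and 26.3%) and 34 in HT+SEA (37.4% and 23.9%), with 6 libraries in each fit. For the arm ratio 6, 1, 6 and 6 of 34 hairpins were called (17.6, 2.94, 17.6 and 17.6%), with 8.97, 1.92, 8.97 and 12.2% of all 156. The arm ratio count of 21 was 16 to 23 without 1 library (with 35.3 to 42.9% of all hairpins) and 19 with the replicate block (37.8%). Within a nucleus 22 of the 44 calls held under every setting and 14 after every loss of a library. In the next counts the bracket gives the share of all miRNAs called in the same fit. PVN HT against NC gave 14 with all 4 groups in the fit (12.6%), 2 at an adjusted p under 0.05 (3.25%), and 4 to 11 without 1 library (8.35 to 11.1%). PVN HT+EA against HT gave 19 with the replicate block (12.9%), 2 adjusted (1.02%) and 8 to 21 (8.59 to 14.1%). PVN HT+SEA against HT gave 4 with DESeq2 (5.1%) and 4 with edgeR's filterByExpr (8.85%), 0 adjusted (0.2%) and 1 to 11 (2.56 to 9.52%). PVN HT+EA against HT+SEA gave 11 with the replicate block (7.85%), 3 adjusted (2.72%) and 4 to 13 (6.35 to 8.78%). CEA HT against NC gave 1 with DESeq2 (0.703%), 0 with library totals (2.91%), 0 with filterByExpr (1.33%), 0 adjusted (0.201%) and 0 to 8 (1.85 to 6.74%). CEA HT+EA against HT gave 8 with library totals (6.18%), 0 adjusted (0.0996%) and 3 to 7 (2.54 to 7.04%). CEA HT+SEA against HT gave 0 with library totals (4.6%), 1 with filterByExpr (2.05%), 0 adjusted (0.4%) and 1 to 6 (1.75 to 5.89%). CEA HT+EA against HT+SEA gave 2 with DESeq2, library totals, filterByExpr or the robust spread (0.78, 2.14, 1.67 and 2.44%), 4 with the replicate block (2.83%), 0 adjusted (0.0%) and 1 to 4 (1.49 to 3.67%). The difference between nuclei in HT against NC gave 7 at an unadjusted p under 0.05 (4.98%) and 2 by DESeq2 at that threshold (1.22%). The difference in HT+EA against HT gave 1 by DESeq2 at that threshold (0.571%). The cause of these changes was not tested. Scaling by library totals moved the median of 532 miRNAs from 0.02 to 0.16 (log2) in CEA HT+EA against HT and from 0.04 to 0.13 in CEA HT+SEA against HT, and from -0.05 to 0.13 and from -0.05 to -0.16 in the differences between nuclei, so changes there are relative to TMM. A block for each number within each treatment gave 53 between the nuclei (58.2%, with 38.3% of all miRNAs). In every comparison the block is a hint from the data, not the design, also where same-numbered libraries deviated together in every pair. Counts under 10 limit 9 members, and 3 libraries a group limit all comparisons within a nucleus.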
